A study of Mus musculus with 9 samples.

Results

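The T-cell receptor repertoire of the superficial cervical lymph nodes (sCLN) was compared between wild-type (WT) and 5xFAD mice. 5xFAD is a transgenic line that carries familial Alzheimer's disease mutations in human transgenes expressed in neurons, and WT mice served as controls. All mice were females of 10 to 11 months. Receptor chains were read from single cells with a 10x Genomics immune profiling kit, and each genotype gave 1 library from this node, of 6 node libraries used and 9 samples in the series. Barcodes with 1 productive beta chain (TRB) and either 1 or 2 productive alpha chains (TRA) were taken as cells, which gave 1123 WT and 2326 5xFAD cells, or 3449 of the 10257 cells in the 6 node libraries. Per the labels' protocols, cells were tagged with 4 hashtag antibodies, samples above 87% viability were kept, and several suspensions were pooled. The contig tables carry no column that ties a cell to an animal. With 1 library a side there is no replicate, and every interval below covers counting error only.

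Each T cell builds its receptor by joining V, D and J gene segments for the beta chain and V and J segments for the alpha chain, with bases trimmed and added at the joins. The resulting junction contacts the presented peptide, and its nucleotides serve as a label for the clone that descends from a cell. T cells in a lymph node are mostly naive, so most receptors in a sample of this size are seen once, and a receptor seen in several cells is read as a clone. The superficial cervical nodes drain the face, scalp and superficial neck.

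The WT library held 3458 contigs on 2201 barcodes with 30107 unique molecular identifiers (UMIs, counts of captured transcripts), and the 5xFAD library held 6541 contigs on 3708 barcodes with 58646 UMIs. The cells formed 1086 WT and 2284 5xFAD clonotypes, a clonotype being a distinct set of V genes, J genes and junction nucleotides of both chains. Exactly paired barcodes made up 51.0% in WT (exact Clopper-Pearson 95% interval 48.9 to 53.1) and 62.7% in 5xFAD (61.1 to 64.3). Barcodes with a beta chain and no alpha chain made up 35.3% in WT and 24.4% in 5xFAD. Cells with 2 alpha chains made up 5.70% in WT (4.42 to 7.22) and 7.997% in 5xFAD (6.93 to 9.17). The libraries shared 18 cell barcodes and 0 combinations of barcode and junction. All contigs were of the TRA or TRB locus, with 0 of any other, so the tables give the T-cell identity of the cells but hold no marker of the tissue or of T-cell subsets.

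Contigs were longer in the 5xFAD library, and this difference stands beside each result on V genes below. The median TRB contig measured 523 nucleotides (nt) in WT and 533 in 5xFAD, and the median TRA contig 531 and 543. Among the paired cells the TRB medians differed by 13 nt, and by 3.50 nt once each V gene was weighted by its use in both libraries together, while the TRA medians differed by 11 nt and 10.0 nt. The part that differed lay before the V region: the median TRB contig held 85 upstream bases in WT and 93 in 5xFAD, and the median TRA contig 108 and 122. The bases after the junction's J segment had the same median in both libraries, 98 for TRB and 87 for TRA. TRB contigs above 560 nt made up 21.9% in WT (20.0 to 23.7) and 33.1% in 5xFAD (31.6 to 34.7). In the deep cervical nodes (dCLN) the TRB medians were level at 525, and the sCLN 5xFAD library had the longest contigs of the 6.

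**Figure D1:**
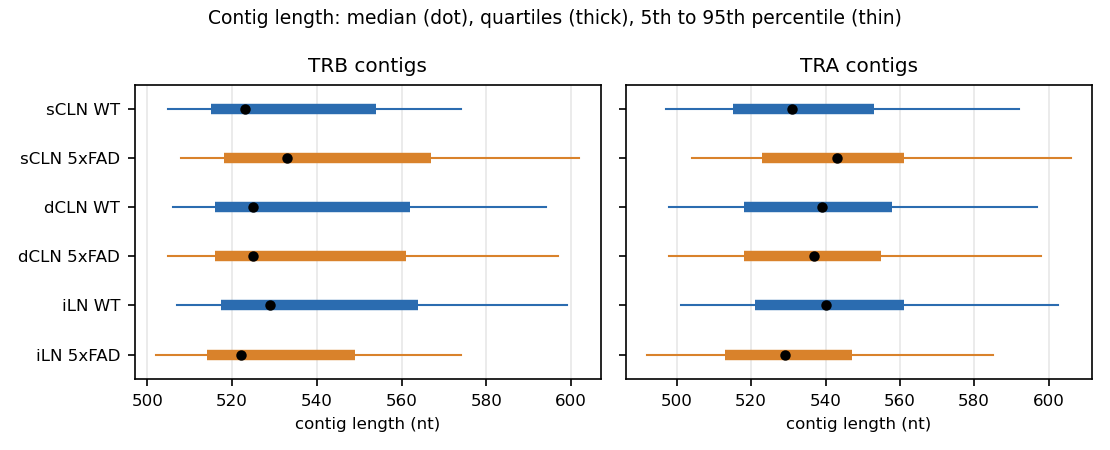
Contig length in nucleotides for TRB contigs (left) and TRA contigs (right) in 6 node libraries, with the median as a dot, the quartiles as a thick bar and the 5th to 95th percentile as a thin line. The sCLN 5xFAD library has the highest medians, 533 for TRB and 543 for TRA, against 523 and 531 in sCLN WT.

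Among beta V genes, TRBV2, TRBV3 and TRBV19 took larger shares of the 5xFAD repertoire, and TRBV15 and TRBV13-1 took smaller shares. A feature was called where its share of clonotypes differed at least 1.5-fold and it had at least 20 clonotypes over both libraries. This held for 5 of 20 TRBV genes (25% called, 15% higher and 10% lower) and for 16 of all 87 V and J features tested (18.4% called), 8 higher and 8 lower in 5xFAD (9.2% each). The same rule called 8.99% of features in dCLN and 17.2% in the inguinal nodes (iLN). The median log2 ratio over the 87 features was 0.03. Shares within a class sum to the whole library, so a small median does not show that the libraries were alike.

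TRBV3 was the most abundant of the higher genes. It was found in 37 WT clonotypes (3.41%, exact 95% interval 2.41 to 4.67) and in 172 5xFAD clonotypes (7.53%, 6.48 to 8.69), a log2 ratio of 1.13 (95% counting interval 0.63 to 1.63). TRBV3 lies at chr6:41048290-41048828 in GRCm38, next to TRBV2 at chr6:41047340-41047995. TRBV2 was found in 14 WT clonotypes (1.29%) and 71 5xFAD clonotypes (3.11%), with a log2 ratio of 1.23 (0.42 to 2.04). The next genes along the locus, TRBV4 and TRBV5, stood at 0.04 and -0.05. TRBV19, at chr6:41178375-41179048, was found in 17 WT clonotypes (1.57%) and 86 5xFAD clonotypes (3.77%), a log2 ratio of 1.23 (0.50 to 1.97).

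TRBV15, at chr6:41141188-41141658, was found in 32 WT clonotypes (2.95%) and 35 5xFAD clonotypes (1.53%). Its log2 ratio was -0.94 (-1.62 to -0.27). TRBV13-1, a member of the V-beta 8 family at chr6:41116007-41116468, was found in 108 WT clonotypes (9.94%) and 150 5xFAD clonotypes (6.57%). Its log2 ratio was -0.60 (-0.94 to -0.26). The ratio was -0.56, within 1.5-fold, with cells left out that held any V or J call naming several genes. In both libraries 0 TRB V calls named several genes, so this setting took out cells for their other calls. TRBV15 and TRBV13-1 lie in a stretch of 9 TRBV genes deleted in SJL mice. These 9 genes together made up 46.8% of WT clonotypes (43.8 to 49.8) and 39.2% of 5xFAD clonotypes (37.2 to 41.3). Of the 9, 6 had negative log2 ratios and 2 were called lower, against 10 negative and 2 called lower (10%) of all 20 TRBV genes, and the medians were -0.24 and -0.01. The most used gene, TRBV13-2, belongs to the same stretch and had shares of 11.8% and 11.0%. In dCLN these genes made up 41.5% in WT and 41.1% in 5xFAD, and in iLN 45.2% and 45.7%.

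**Figure D2:**
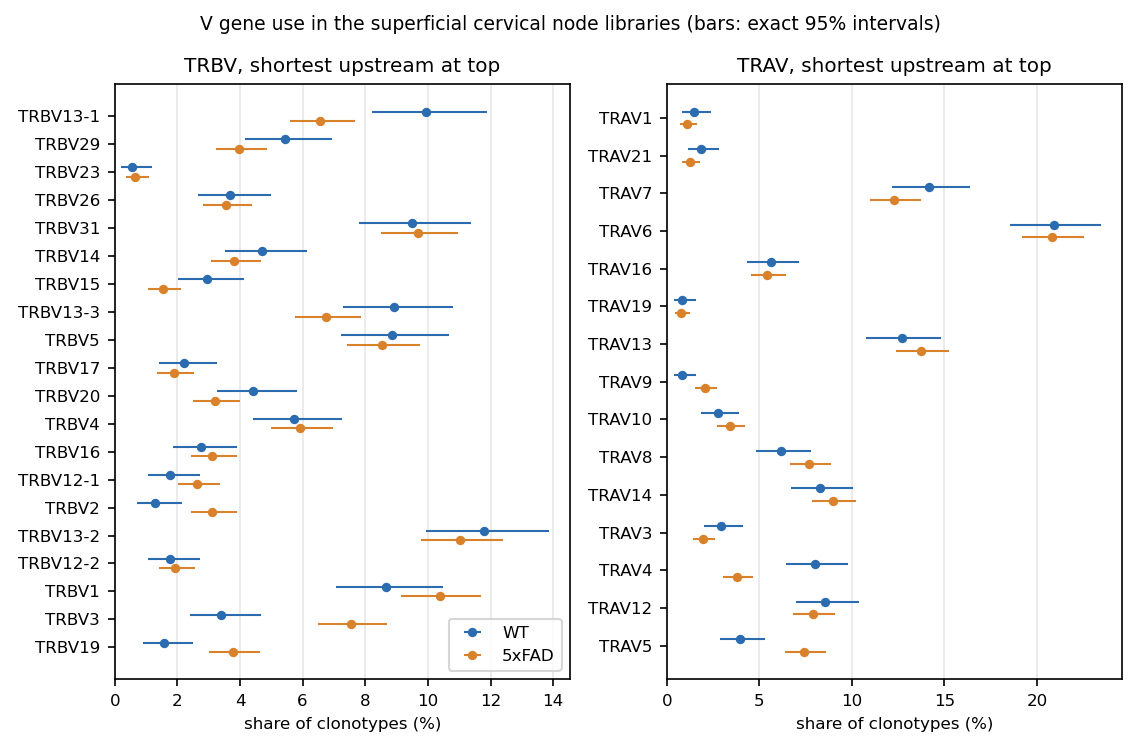
Share of clonotypes (%) for 20 TRBV genes (left) and 15 TRAV subgroups (right) in the sCLN WT and 5xFAD libraries, ordered by the median number of bases upstream of the V region, with exact 95% intervals as bars. TRBV3 and TRBV19, at the bottom of the left panel, were higher in 5xFAD, and TRBV13-1, at the top, was lower.

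TRBV ratios ran with the upstream length of the gene. Across 20 TRBV genes the Spearman rho between the median upstream length over the 6 libraries and the sCLN log2 ratio was 0.67, and it was -0.17 in dCLN and -0.58 in iLN. These points share their libraries and are not replicates. The 11 genes with the shortest upstream part, medians of 73 to 89 bases, made up 61.1% of WT clonotypes (58.2 to 64.1) and 50.1% of 5xFAD clonotypes (48.1 to 52.2). The middle band made up 33.9% and 38.6%. It holds 7 tested genes with medians of 106 to 130 bases and a few clonotypes of genes below the minimum of 20. The long band, which holds only TRBV3 with 158 and TRBV19 with 210 bases, made up 4.97% (3.76 to 6.44) and 11.3% (10.0 to 12.7), a log2 ratio of 1.17.

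Within the bands the genes separated. As a share of their band, TRBV3 and TRBV19 had log2 ratios of -0.04 and 0.06, which shows only that both were higher to the same degree, since the band holds no other gene. TRBV2 kept 1.04 (0.25 to 1.84) and TRBV15 -0.66 (-1.33 to 0.01), while TRBV13-1 stood at -0.31. In cells whose contigs both measured at most 560 nt, 64.6% of WT and 48.7% of 5xFAD cells, TRBV2 stood at 0.91 on 5 and 16 clonotypes, TRBV3 at 0.60 on 10 and 25, and TRBV19 at 0.42 on 3 and 7. The intervals of these 3 ratios included 0. TRBV15 stood at -0.78 (-1.52 to -0.04). TRBV13-1 stood at -0.20 (-0.58 to 0.19) on 83 and 116 clonotypes, which is no longer 1.5-fold. Within a given gene, the median upstream length was longer in 5xFAD for 4, equal for 13 and shorter for 1 of the 18 TRBV genes with at least 20 contigs in each library. TRBV3 had 158 upstream bases in both libraries. TRBV19 had 166.5 in WT and 209.5 in 5xFAD. The part of contig length in the V-gene differences was not tested beyond these values.

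**Figure D3:**
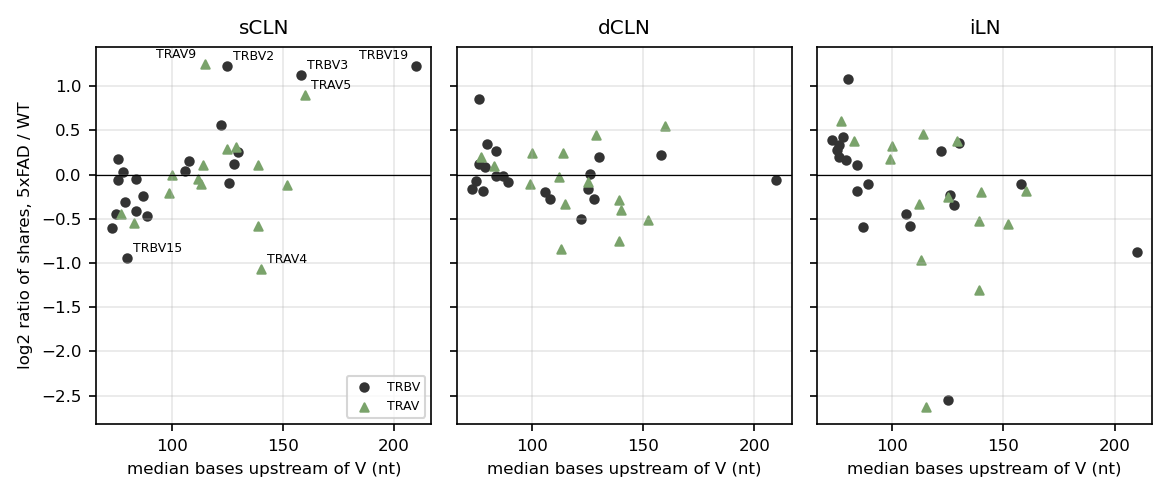
Log2 ratio of clonotype shares, 5xFAD over WT, against the median number of bases upstream of the V region, for TRBV genes (circles) and TRAV subgroups (triangles) in 3 node types. In sCLN the long TRBV3 and TRBV19 lie above 0 and TRBV15 lies below it, whereas in iLN the TRBV genes run the other way.

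Among alpha V subgroups, TRAV5 and TRAV9 took larger shares in 5xFAD, and TRAV4 and TRAV3 took smaller shares, 4 of 15 subgroups (26.7% called, 13.3% in each direction). Genes were summed by subgroup, because the mouse alpha locus holds near-identical duplicated copies. TRAV5 was found in 43 WT clonotypes (3.96%, 2.88 to 5.30) and 170 5xFAD clonotypes (7.44%, 6.40 to 8.60), a log2 ratio of 0.90 (0.43 to 1.37). TRAV9, a subgroup used preferentially by CD8 T cells, was found in 9 WT clonotypes (0.829%) and 47 5xFAD clonotypes (2.06%), a log2 ratio of 1.25 (0.25 to 2.25). TRAV4, used preferentially by CD4 T cells, was found in 87 clonotypes of each library, which is 8.01% of WT and 3.81% of 5xFAD clonotypes, and its log2 ratio was -1.07 (-1.49 to -0.66). TRAV3 was found in 32 WT clonotypes (2.95%) and 45 5xFAD clonotypes (1.97%), and the interval of its ratio, -0.59 (-1.23 to 0.05), included 0.

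The other subgroups listed as skewed between T-cell lineages stayed within 1.5-fold. TRAV14, the other subgroup known from CD4 T cells, made up 8.29% and 8.98%, a log2 ratio of 0.11. TRAV12, listed with TRAV9 as used in CD8 T cells, made up 8.56% and 7.92%, a log2 ratio of -0.12. The most used subgroup, TRAV6, made up 20.9% and 20.8%.

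The gene names within the called TRAV subgroups also differed between the libraries. In TRAV5, TRAV5D-4 accounted for 22 of 43 WT and 136 of 170 5xFAD clonotypes, and TRAV5-1 for 18 and 34. In TRAV4, TRAV4D-4 accounted for 29 of 87 WT clonotypes, with 16 more called as TRAV4D-4 or TRAV4N-4, and for 6 of 87 in 5xFAD. TRAV4D-3 accounted for 25 and 54. In TRAV3, 17 of 32 WT clonotypes were called as TRAV3D-3 or TRAV3N-3, while TRAV3-1 accounted for 6 in WT and 34 of 45 in 5xFAD. In TRAV9, TRAV9-1 accounted for 1 WT and 23 5xFAD clonotypes.

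The match of the alpha chains to the germline set differed alongside. TRA calls naming more than 1 V gene made up 20.4% in WT (18.4 to 22.5) and 6.13% in 5xFAD (5.30 to 7.04), and 0 TRB calls did in either library. V regions identical to their called germline allele made up 74.98% of TRA contigs in WT (72.7 to 77.2) and 66.0% in 5xFAD (64.3 to 67.7), against 96.2% and 95.8% of TRB contigs. In dCLN, TRA calls naming more than 1 V gene made up 22.2% in WT and 5.49% in 5xFAD, and in iLN 21.5% and 5.45%. Identical TRA contigs made up 73.8% and 66.2% in dCLN, and 74.4% and 67.5% in iLN. Among the called subgroups, sCLN WT and 5xFAD had identical shares of 71.9% and 15.6% in TRAV3, and 82.8% and 57.5% in TRAV4. They had 16.3% and 16.5% in TRAV5, and 44.4% and 83.0% in TRAV9. With cells left out that held any V or J call naming several genes, the TRAV3 ratio turned to 0.23. Within bands of upstream length TRAV4, TRAV5 and TRAV9 stood at -1.01, 0.96 and 1.20. In cells whose contigs both measured at most 560 nt, TRAV5 stood at 0.05 (-0.71 to 0.81) on 21 and 35 clonotypes and TRAV4 at -0.60 (-1.12 to -0.08) on 54 and 57. TRAV9 stood at 1.80 (0.17 to 3.44) on only 3 and 19 clonotypes, and TRAV3 at -2.46 (-3.97 to -0.95) on 15 and 4, below the minimum of 20. The upstream median of TRAV5 was 132.5 in WT and 166 in 5xFAD, and it was 140 in both libraries for TRAV4. For TRAV3 it was 137 and 147.5, and for TRAV9 166 on 10 WT contigs and 115 on 57 5xFAD contigs. It was longer in 5xFAD for 8, equal for 5 and shorter for 0 of 13 TRAV subgroups with at least 20 contigs in each library. Across 15 TRAV subgroups the Spearman rho between upstream length and the sCLN log2 ratio was 0.23. The part of V calls and contig length in the TRAV differences was not tested.

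None of the 12 TRBJ genes differed 1.5-fold (0% called). TRBJ1-6 was the farthest on the higher side, with shares of 2.58% and 3.81% and a log2 ratio of 0.55, and TRBJ2-1 the farthest on the lower side, with shares of 12.2% and 10.0% and a log2 ratio of -0.28. The TRBJ2 cluster, which lies downstream of TRBJ1, made up 68.4% of WT clonotypes (65.6 to 71.2) and 67.3% of 5xFAD clonotypes (65.3 to 69.2). TRBJ2-7 was the most used J gene in both, at 18.9% and 18.3%. Each TRB contig of a clonotype with a called constant region, 1064 in WT and 2245 in 5xFAD, carried the constant gene of its own J cluster.

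The 3 alpha J genes that took larger shares in 5xFAD all lie in the V-proximal part of the cluster, where 11 of 14 genes stayed within 1.5-fold. In thymocytes the alpha locus first joins J genes near the V genes and then moves to distal ones in later rounds. Of 40 TRAJ genes 7 differed 1.5-fold (17.5% called, 7.5% higher and 10% lower), and the 3 higher genes, TRAJ58, TRAJ45 and TRAJ52, are all numbered 40 or above. TRAJ58, at chr14:54157280-54157342, was found in 9 WT clonotypes (0.829%) and 43 5xFAD clonotypes (1.88%), a log2 ratio of 1.12 (0.12 to 2.13). TRAJ45 was found in 20 and 70 clonotypes, 1.84% and 3.06%, with a log2 ratio of 0.71 (0.01 to 1.41). TRAJ52 was found in 22 and 74, 2.03% and 3.24%, and the interval of its ratio, 0.66 (-0.02 to 1.33), included 0.

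The 4 lower TRAJ genes all lie farther from the V genes. TRAJ21, at chr14:54198790-54198846, was found in 35 WT clonotypes (3.22%) and 36 5xFAD clonotypes (1.58%), a log2 ratio of -1.03 (-1.69 to -0.37). TRAJ37 was found in 48 and 53, 4.42% and 2.32%, a log2 ratio of -0.93 (-1.48 to -0.38). TRAJ7 was found in 28 and 35, a log2 ratio of -0.76 (-1.46 to -0.05), and TRAJ6 in 26 and 34, a log2 ratio of -0.69 (-1.41 to 0.03). A further setting left out cells that held any V or J call naming several genes, not only a TRAJ call. TRAJ21 then stood at -0.47, TRAJ6 at -0.56, TRAJ45 at 0.40 and TRAJ52 at 0.57, each within 1.5-fold.

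As groups, the 14 genes numbered 40 or above made up 31.1% of WT clonotypes (28.4 to 34.0) and 36.7% of 5xFAD clonotypes (34.8 to 38.7). Of these 14, 11 had positive log2 ratios, against 22 of all 40, with medians of 0.07 and 0.03. Near TRAJ58, TRAJ57 stood at 0.03, TRAJ56 at -0.45 and TRAJ53 at -0.11. All genes numbered 21 to 39, of which 14 reached the minimum of 20 clonotypes, made up 44.6% and 40.9%. All genes numbered 20 or below, of which 12 reached it, made up 24.3% and 22.4%. The intervals overlapped in both groups. The share of genes numbered 40 or above was 33.3% in WT (30.6 to 36.1) and 34.6% in 5xFAD (32.8 to 36.4) in dCLN. In iLN it was 31.9% (29.7 to 34.2) and 35.7% (32.9 to 38.6). The intervals overlapped in both of these nodes. The group was chosen with these results known.

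**Figure D4:**
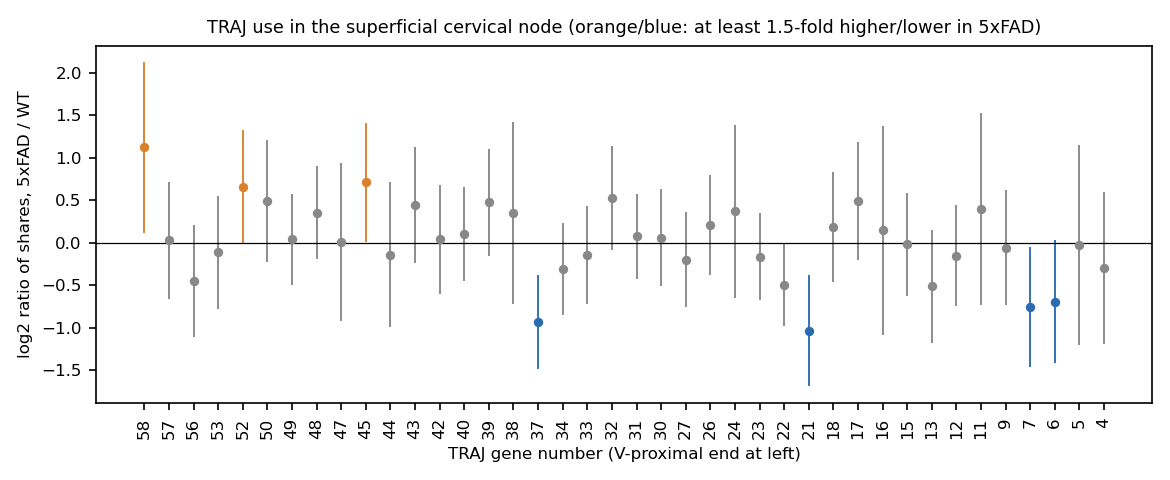
Log2 ratio of clonotype shares, 5xFAD over WT, for 40 TRAJ genes in sCLN, ordered along the J cluster from the V-proximal end at left, with 95% counting intervals as bars. TRAJ58, TRAJ52 and TRAJ45, on the left, are the 3 genes at least 1.5-fold higher, and TRAJ37, TRAJ21, TRAJ7 and TRAJ6 the 4 at least 1.5-fold lower.

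Pairings of V with J genes were compared by the same rule. The minimum of 20 clonotypes falls on the sum of both libraries, so a pair can reach it mainly through the library where it is higher. The called shares and directions of pairs below depend on that minimum. Of 58 TRBV-TRBJ pairs with at least 20 clonotypes 19 differed 1.5-fold (32.8% called), 10 higher (17.2%) and 9 lower (15.5%) in 5xFAD. Of the 19, 12 held no gene called alone, a smaller part than among the 58 tested pairs. Pairs rest on fewer clonotypes than single genes, and among the called pairs the interval excluded 0 only for TRBV13-1 with TRBJ1-1, TRBV13-3 with TRBJ2-1 or TRBJ2-5, and TRBV3 with TRBJ2-1. TRBV13-1 with TRBJ1-1 was found in 22 WT and 13 5xFAD clonotypes, a log2 ratio of -1.81 (-2.78 to -0.84). The WT count was 1.92 times that expected from the separate shares of the genes, 11.4, and the 5xFAD count 0.934 times its expectation of 13.9. TRBV3 with TRBJ2-1 was found in 3 and 27 clonotypes, a log2 ratio of 1.90 (0.30 to 3.50), at 0.667 and 1.57 times the expected counts.

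The other higher TRBV-TRBJ pairs among the largest ratios had intervals that included 0. TRBV4 with TRBJ2-4 had 2 and 18 clonotypes, TRBV1 with TRBJ1-4 had 4 and 21, TRBV3 with TRBJ2-5 had 6 and 28, and TRBV5 with TRBJ2-5 had 8 and 35. Their log2 ratios ran from 0.99 to 1.82. On the lower side TRBV13-3 had 14 and 12 clonotypes with TRBJ2-1 and 14 and 13 with TRBJ2-5. TRBV29 with TRBJ2-7 had 15 and 16, and TRBV20 with TRBJ2-7 had 12 and 13, all at log2 ratios from -1.29 to -0.96.

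Alpha pairs were spread thinly, with 550 TRAV-TRAJ combinations seen and 19 reaching 20 clonotypes. Of these 11 differed 1.5-fold (57.9% called), 8 higher (42.1%) and 3 lower (15.8%), and the interval included 0 for each of the 11. Some of the higher pairs only just reached the minimum, through their 5xFAD counts. With a minimum of 10 clonotypes, 59 of 119 pairs were called. A gene called alone was held by 3 of the 11, TRAV6 with TRAJ45, TRAJ52 or TRAJ7, and by no other tested pair. TRAV6 with TRAJ32 was found in 4 WT and 25 5xFAD clonotypes, a log2 ratio of 1.43 (-0.01 to 2.87), at 0.709 and 1.45 times the expected counts. TRAV7 with TRAJ17 had 3 and 17 clonotypes, and TRAV6 had 5 and 22 with TRAJ45 and 5 and 21 with TRAJ52. TRAV13 had 4 and 16 clonotypes both with TRAJ26 and with TRAJ50. The 3 lower pairs all used TRAV6, with 10 and 10 clonotypes for TRAJ30, 10 and 10 for TRAJ7, and 10 and 12 for TRAJ40.

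Between the chains, 22 of 52 TRAV-TRBV pairs differed 1.5-fold (42.3% called), 9 higher (17.3%) and 13 lower (25%). Of the 22, 13 held no gene called alone, a smaller part than among the 52 tested pairs. The interval excluded 0 for 7 of the 22, of which 2 were higher and 5 lower. TRAV13 with TRBV3 was found in 1 WT clonotype, where 4.70 were expected from the separate shares, and in 28 5xFAD clonotypes, where 23.6 were expected, a log2 ratio of 3.18 (0.81 to 5.54). TRAV14 with TRBV31 was found in 3 and 27 clonotypes, at 0.351 and 1.36 times the expected counts, a log2 ratio of 1.90 (0.30 to 3.50). Neither TRAV13, TRAV14 nor TRBV31 alone differed 1.5-fold, whereas TRBV3 alone did, with a log2 ratio of 1.13. Among the lower pairs TRAV13 with TRBV20 was found in 14 and 11 clonotypes, at 2.30 and 1.10 times the expected counts, a log2 ratio of -1.41 (-2.52 to -0.29). TRAV4 had 11 and 9 clonotypes with TRBV31, a log2 ratio of -1.35 (-2.58 to -0.11), and 12 and 10 with TRBV13-2, a log2 ratio of -1.32 (-2.50 to -0.15). TRAV7 with TRBV29 had 13 and 11, a log2 ratio of -1.30 (-2.43 to -0.17). TRAV13 with TRBV13-1 had 17 and 18, a log2 ratio of -0.99 (-1.93 to -0.06). These 7 pairs were picked after their values were seen, as those whose intervals excluded 0.

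Mean junction lengths and added bases were slightly higher in 5xFAD, by less than 1 base in each case, and the interval of the TRA length difference included 0. TRB junctions measured 41.6 nt ± 4.29 in WT (SD over 1086 clonotypes) and 41.9 ± 4.20 in 5xFAD (SD over 2284 clonotypes). TRA junctions measured 40.4 ± 4.20 and 40.7 ± 4.14. TRB junctions of 48 nt or more made up 10.2% in WT (8.48 to 12.2) and 13.1% in 5xFAD (11.8 to 14.6), and those of 36 nt or less 17.1% (14.9 to 19.5) and 14.4% (12.9 to 15.9). The TRA length difference was 0.29 nt (95% counting interval -0.01 to 0.59). The TRB length difference was 0.32 nt (0.01 to 0.62), and 0.05 nt in cells whose contigs both measured at most 560 nt.

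**Figure D5:**
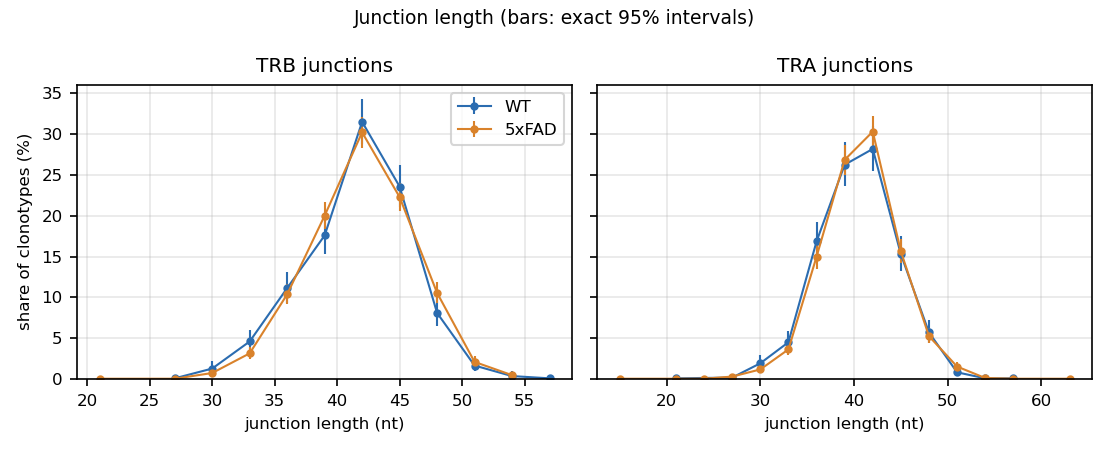
Share of clonotypes (%) by junction length in nucleotides for TRB (left) and TRA (right) in the sCLN WT and 5xFAD libraries, with exact 95% intervals as bars. Both libraries peak at 42 nt, with 31.5% and 30.2% of TRB clonotypes there.

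Bases added by terminal transferase or from hairpin ends blur the germline at the join. After the V segment, TRB junctions held 2.66 added bases ± 2.54 in WT and 2.90 ± 2.70 in 5xFAD (SD over clonotypes), and TRA junctions 2.63 ± 2.29 and 2.801 ± 2.35. The differences were 0.23 bases (0.05 to 0.42) for TRB and 0.17 bases (0.01 to 0.34) for TRA. A D segment was called in 827 of 1086 WT and 1710 of 2284 5xFAD TRB chains. In the other TRB chains the count runs from V to J, so it can hold D bases. Where D was called, the added bases on both sides of it came to 3.26 ± 2.12 in WT and 3.56 ± 2.30 in 5xFAD. TRA junctions with no added base made up 21.1% in WT (18.7 to 23.6) and 17.7% in 5xFAD (16.2 to 19.4), and TRB junctions with none after V 21.5% (19.0 to 24.0) and 19.8% (18.2 to 21.5). The net charge of the middle of the TRB junction was -0.85 ± 0.99 in WT and -0.81 ± 1.00 in 5xFAD, counting lysine and arginine against aspartate and glutamate outside the 3 residues at each end.

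The D segment was called less securely than V and J. TRBD2 lies downstream of the TRBJ1 cluster and is not joined to it in the usual order of the locus, but it was called in 25 of 343 WT chains with a TRBJ1 gene (7.29%) and 43 of 747 5xFAD chains (5.76%). In chains with a TRBJ2 gene TRBD2 was called in 42.9% of WT (39.3 to 46.6) and 44.8% of 5xFAD (42.3 to 47.4).

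Few junctions were found in both genotypes. By nucleotides, 34 TRA junctions were shared, 3.18% of the 1070 in WT and 1.52% of the 2242 in 5xFAD, and 16 of these held no added base. By amino acids, 101 TRA junctions were shared, 9.70% and 4.70%, and 15 TRB junctions, 1.40% and 0.663%. A single TRB junction was shared by nucleotides, and it is shown because it carries 4 added bases, given in capitals, and was paired with different alpha chains, TRAV6 with TRAJ7 in WT and TRAV15 with TRAJ34 in 5xFAD.
TRBV13-2 TRBJ2-1, both libraries: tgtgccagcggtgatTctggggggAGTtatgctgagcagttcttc

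Clones were small in both libraries and took a larger share of WT cells. In WT, 36 clonotypes were found in 2 or more cells, 35 of them in 2 and 1 in 3, and they took 73 of 1123 cells (6.50%, 5.13 to 8.10). In 5xFAD, 42 clonotypes were found in 2 cells each and none in more, and they took 84 of 2326 cells (3.61%, 2.89 to 4.45). A larger sample meets more repeats, and with the 5xFAD cells thinned to 1123 the share was 1.75% (mean of 200 draws). In cells whose contigs both measured at most 560 nt the shares were 7.03% and 2.47%. Within each library the closest pair of barcodes of a clone differed at 9 of 16 positions. Clones of 2 or more cells also took a larger share of WT cells in dCLN, 8.64% against 1.17% in 5xFAD. In iLN they took 3.02% and 1.56%, with overlapping intervals. Thinned to 1123 cells, the shares were 7.91% and 0.483% in dCLN, and 2.07% and 1.53% in iLN.

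The largest WT clone and the most UMI-rich repeated clones of each library are shown by their junctions, since the nucleotides define them. Capitals mark added bases, and in a TRB junction with no D segment marked they cover every base between V and J.
WT clone of 3 cells, TRBV29 TRBJ1-4: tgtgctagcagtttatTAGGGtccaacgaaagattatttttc
WT clone of 3 cells, TRAV10 TRAJ16: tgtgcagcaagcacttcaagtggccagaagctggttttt
WT clone of 2 cells, TRBV13-1 TRBJ2-7: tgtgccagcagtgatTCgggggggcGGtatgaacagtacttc
WT clone of 2 cells, TRAV13 TRAJ9: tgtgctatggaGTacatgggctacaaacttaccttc
5xFAD clone of 2 cells, TRBV3 TRBJ2-3: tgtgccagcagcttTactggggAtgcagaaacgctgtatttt
5xFAD clone of 2 cells, TRAV14 TRAJ13: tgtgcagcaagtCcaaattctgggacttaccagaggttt
5xFAD clone of 2 cells, TRBV29 TRBJ1-1: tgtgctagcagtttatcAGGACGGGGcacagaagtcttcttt
5xFAD clone of 2 cells, TRAV9 TRAJ11: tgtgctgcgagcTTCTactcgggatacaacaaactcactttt

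The WT clone of 3 cells was also found in 2 cells of the iLN WT library. Its beta junction holds 5 bases between V and J, with no D segment marked, and its alpha junction holds no added base. In all, sCLN WT shared 8 clonotypes with iLN WT and 3 with dCLN WT, and sCLN 5xFAD shared 1 with iLN 5xFAD and 0 with dCLN 5xFAD. That 5xFAD clonotype used TRBV31 with TRBJ2-3 and TRAV8 with TRAJ17, in 1 cell of each library.
TRBV31 TRBJ2-3: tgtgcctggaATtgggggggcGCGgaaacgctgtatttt
TRAV8 TRAJ17: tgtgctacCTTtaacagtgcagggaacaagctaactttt

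Repeated clones drew on many V genes. TRAV13 was the most frequent alpha subgroup among them, in 9 of 36 WT clones (25%, 12.1 to 42.2) and 12 of 42 5xFAD clones (28.6%, 15.7 to 44.6), while it was used by 12.3% of WT clonotypes seen once (10.4 to 14.4) and 13.5% of 5xFAD ones (12.1 to 14.95). TRBV3 was the most frequent beta gene among the 5xFAD clones, in 7 of 42 (16.7%, 6.97 to 31.4), against 7.36% of those seen once. In WT it was found in 2 of 36. TRBJ2-5 was found in 12 of 42 5xFAD clones (28.6%) and 2 of 36 WT clones (5.56%). These genes were singled out after their values were seen. The intervals between repeated and single clonotypes overlapped, apart from TRAV13 in 5xFAD.

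Some innate-like T cells carry alpha chains that are nearly the same in every animal, which makes them readable from junctions alone. Invariant natural killer T (iNKT) cells join TRAV11 to TRAJ18 and recognise lipids on CD1d. Mucosal-associated invariant T (MAIT) cells join TRAV1 to TRAJ33 and recognise vitamin B metabolites on MR1. The junctions are shown with capitals at the positions where they vary, counted from 1 at the 5′ end of the junction.
iNKT, TRAV11*02: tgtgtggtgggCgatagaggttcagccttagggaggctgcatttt
iNKT, TRAV11*01 or TRAV11D*01, C12G: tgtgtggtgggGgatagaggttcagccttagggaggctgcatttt
MAIT, WT: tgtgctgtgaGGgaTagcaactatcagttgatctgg
MAIT, 5xFAD, T15C: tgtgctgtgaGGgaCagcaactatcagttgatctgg
MAIT, 5xFAD, G11T G12T: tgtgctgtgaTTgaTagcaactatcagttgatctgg

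iNKT chains were found in 6 WT cells (0.534%, 0.196 to 1.16), 3 with each form of the junction. They were paired with TRBV13-2 in 3 cells and TRBV13-1 in the other 3, both of the V-beta 8 family usual for these cells. None of the 2326 5xFAD cells carried one (0 cells), with an upper limit of 0.129% by 3 counts and of 0.158% by the exact interval. TRAV11 itself was found in 5 5xFAD cells with other J genes, and TRAJ18 in 67 (2.88%) against 27 in WT (2.40%). A WT clone of 2 iNKT cells, with the C12G form, was also found in 1 dCLN WT cell. The other nodes had the same order, with overlapping intervals between WT and 5xFAD in each. iNKT chains were found in 3 of 1227 WT and 0 of 2742 5xFAD cells in dCLN, and in 5 of 1688 and 0 of 1151 in iLN.

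MAIT chains were found in 4 WT cells (0.356%, 0.0971 to 0.909) and 2 5xFAD cells (0.0860%, 0.0104 to 0.310), with overlapping intervals. The 4 WT cells carried the same alpha junction, with no added base, in 4 clonotypes that differed in their beta chains, 3 of them using TRBV13-3. In 5xFAD each of the 2 cells carried its own form, with 1 and 2 added bases. In dCLN, MAIT chains were found in 5 of 1227 WT cells (0.407%) and 3 of 2742 5xFAD cells (0.109%). The order was the other way in iLN, with 4 of 1688 (0.237%) and 4 of 1151 (0.348%). The intervals overlapped in both of these nodes.

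The number of UMIs per chain was close between the libraries, while the reads behind them were not. The median TRB chain of a cell held 9 UMIs in WT (quartiles 6 to 14) and 10 in 5xFAD (6 to 15), and the median TRA chain 5 (4 to 8) and 6 (4 to 8). Chains resting on 1 UMI made up 2.05% of TRB and 2.58% of TRA chains in WT, and 1.33% and 1.46% in 5xFAD. The median reads per UMI were 389 for TRB in WT and 289 in 5xFAD, but 93.9 for TRA in WT and 143 in 5xFAD, so that beta and alpha chains stood in opposite order. Barcodes with a beta chain and no alpha chain had a median of 9 TRB UMIs in both libraries. Cells of repeated clones had median TRB counts of 9 in WT and 6 in 5xFAD, against 9 and 10 in cells seen once, and median TRA counts of 7 in both, against 5 and 6.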

How the data were processed

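Each library came as 1 table with a row per assembled contig. Per the file headers, the authors deposited for each contig a count of UMIs and a count of reads, both unnormalized. V identity was deposited as a fraction of aligned bases. Contig, junction and added-base lengths were deposited in nucleotides, with V, D and J calls in the column set of IgBLAST. The submitters' processing notes name Cell Ranger (6.0.1), Seurat (4.1.0) and mm10 without saying what each was used for. Filters applied before deposit are not given in the sources used here.

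All contigs of the 6 node libraries were productive, and the 1 sCLN 5xFAD contig without a junction was dropped. The TRA chain with more UMIs was kept. Barcodes with more than 1 TRB or 2 TRA chains, 1.45% in WT and 3.91% in 5xFAD, were set aside as possible doublets, and no doublet caller was run. Each clonotype was counted once. Ratios of shares were taken on the log2 scale after adding 0.5 to each count, with 95% counting intervals, and shares had exact Clopper-Pearson intervals. A count of 0 was given a limit of 3 counts. PCR reads were not used as counts. No p-value was computed, since 1 library a side gives no replicate error. The ratio and its interval were run on simulated counts that held counting error only, so differences between libraries or animals were not covered. Python 3.11.15, numpy 2.4.6, pandas 2.3.3 and scipy 1.17.1 were used, and gene positions came from the GENCODE annotation of GRCm38. Every printed junction was read from the deposited contigs.

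Named were every feature past 1.5-fold with at least 20 clonotypes, up to 12 a direction, the 5 TRBV-TRBJ and 5 TRAV-TRAJ pairs with the largest ratios in each direction, the largest clone, clones seen elsewhere and the lists in the text. Members and lists were chosen with earlier results of these data known. Alternatives covered the counted unit, unpaired chains, barcodes with extra chains, UMI minimum, ambiguous calls, pseudocount, feature minimum, contig length, TRAV naming and thinning. The bands of upstream length, the limit of 560 nt and the weighting of junctions by V gene were added after the data were seen. Libraries titled CD4 or mixed were not used.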

Additional observations from a re-analysis of the deposited data

Results flagged for a closer look

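TRBV2, TRBV15, TRBV19 and TRAV9 differed in opposite directions in sCLN and iLN, past 1.5-fold in each node. TRBV2 had a log2 ratio, 5xFAD over WT, of 1.23 in sCLN and -2.55 in iLN. TRAV9 had 1.25 in sCLN and -2.63 in iLN, TRBV19 had 1.23 in sCLN and -0.88 in iLN, and TRBV15 had -0.94 in sCLN and 1.08 in iLN. In dCLN the ratios were -0.16 for TRBV2, -0.34 for TRAV9, -0.06 for TRBV19 and 0.34 for TRBV15, and each interval included 0. The difference between nodes was not tested, since each node and genotype has 1 library. Contig length moved with it: median TRB contigs were longer in 5xFAD than in WT in sCLN, at 533 and 523 nt, and shorter in iLN, at 522 and 529.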

How the results depend on the processing

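No paired analysis was possible because each genotype had 1 library from this node, and the replicate numbers are only names. Of the alternatives run on the counts, lengths, clone shares and UMI ratios, 58 left the value within its limit and 13 moved it. A count can stay while its features change. With cells left out that held any ambiguous V or J call, 16 features were called again, but only 10 of them were among the first 16. TRBV13-1, at -0.56, TRAV3, TRAJ21, at -0.47, TRAJ45, at 0.40, TRAJ52, at 0.57, and TRAJ6, at -0.56, then stood within 1.5-fold. With contigs of at most 560 nt TRBV13-1, at -0.20, and TRAV5, TRAJ52 and TRAJ6 did. Counting TRAV by gene raised the called features from 16 to 36, of 123 tested. Shares within a band of upstream length lowered the called V features from 9 to 5, which were TRBV2, TRBV15, TRAV4, TRAV5 and TRAV9. With a minimum of 10 clonotypes the called pairs rose to 52 for TRBV-TRBJ, 59 for TRAV-TRAJ and 64 for TRAV-TRBV, since more pairs were tested, and with contigs of at most 560 nt they fell to 7, 2 and 4, since fewer were. The 5xFAD share of cells in clones was 2.47% with that limit and 1.75% thinned to the WT cell number. Reads in place of UMIs gave a 5xFAD over WT ratio of 0.822 for TRB and 1.59 for TRA, against 1.11 and 1.20. With each V gene weighted by its use in both libraries together the TRB contig difference among paired cells was 3.50 nt, against 13. Among the 16 named features 3 ratios turned. TRAV3 turned to 0.23 with the cells of ambiguous calls left out, and TRAJ6 to 0.037 with contigs of at most 560 nt. TRBV3 turned to -0.044 within its band, which holds only TRBV3 and TRBV19. The cause was not tested. The depth leaves pairs and invariant chains with few clonotypes, so their intervals are wide.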

Other observations

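The 20 TRBV genes kept much of their order of use. TRBV13-2, TRBV13-1, TRBV31, TRBV13-3, TRBV5 and TRBV1 led the WT library with shares from 8.66% to 11.8%, and TRBV13-2, TRBV1, TRBV31, TRBV5 and TRBV3 led the 5xFAD library with shares from 7.53% to 11.0%. TRBV23 was the rarest tested gene in both, at 0.552% and 0.657%. The median absolute log2 ratio was 0.28 for TRBV, 0.29 for TRAV and 0.30 for TRAJ, against 0.11 for TRBJ. The same measure was 0.18 for both TRBV and TRBJ in dCLN, and 0.35 for TRBV and 0.23 for TRBJ in iLN. Cysteine in the middle of the junction, a feature known from self-reactive and intraepithelial T cells, was found in 1 TRB clonotype of each library, and in 3 WT (0.276%) and 6 5xFAD (0.263%) TRA clonotypes.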
